A study of Drosophila melanogaster with 3 samples.

Results

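The regions described here are the peaks with the most sequenced RNA in 3 peak lists of the exon junction complex (EJC). They number 300 of 87432 peaks, 100 from each list. A peak's depth sum is its deposited score, a mean read depth per base, multiplied by its width in nucleotides (nt). Peaks were ranked by depth sum within their own list and the 100 highest were kept, so the regions were chosen by depth and width. Their depth, width and share of depth are given below as a description, without a test.

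The EJC is a protein complex that the spliceosome leaves on mRNA a short distance upstream of exon-exon junctions. Its core is eIF4AIII, an ATPase that clamps the RNA, the Y14-Mago dimer, which holds the clamp closed, and Btz (Barentsz), which binds eIF4AIII and RNA. The complex stays on the mRNA during export and is displaced by translating ribosomes, and in the Drosophila oocyte it is known for its part in localising oskar mRNA.

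The study asked which splice junctions carry the complex. S2 cells, an embryo-derived Drosophila melanogaster line, expressed a tagged EJC protein under copper induction. After 72 h in culture, translation was blocked with cycloheximide at 100 µg/ml for 2 h. The tagged protein was purified with its RNA, polyadenylated RNA was held on oligo(dT) beads, and after 15 min with micrococcal nuclease (MNase) the fragments were purified again through another, untagged EJC protein. The eIF4AIII/Y14 library came from tagged eIF4AIII and then endogenous Y14, the Btz/eIF4AIII library from tagged Btz and then eIF4AIII, and the Y14/eIF4AIII library from tagged Y14 and then eIF4AIII. MNase was used at 0.5 units in eIF4AIII/Y14 and Btz/eIF4AIII and at 0.3 units in Y14/eIF4AIII. With 1 library per purification, purification, MNase amount and library cannot be told apart, and no test between purifications was made. A control purification was not analysed here, so RNA recovered without the complex was not measured.

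The eIF4AIII/Y14 list had 34945 peaks, Btz/eIF4AIII had 36393 and Y14/eIF4AIII had 16094, with depth sums of 196449047, 655503834 and 316814746 read bases. Depths are not scaled to library size, so regions are compared between lists by rank. Positions are 1-based on release 5 of the genome, judged by the sequence names in the lists. No genome or annotation of that release was used here, so regions are named by position, without a gene, exon or sequence. Intervals are exact (Clopper-Pearson) 95% binomial intervals for shares and order-statistic intervals for medians. They cover counting error only and treat peaks as independent, although neighbouring peaks may come from 1 transcript.

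The 100 regions held 15.1% of the eIF4AIII/Y14 depth, 16.95% of the Btz/eIF4AIII depth and 18.7% of the Y14/eIF4AIII depth. They were 0.286%, 0.275% and 0.621% of the peaks and 0.620%, 1.68% and 2.18% of the covered bases. The depth was concentrated further within them. The first 10 held 4.53%, 7.54% and 8.02% of all depth, and the region at rank 1 held 0.855%, 1.77% and 1.86% alone. The depth sum fell from rank 1 to rank 100 by a factor of 10.4 in eIF4AIII/Y14, against 34.6 in Btz/eIF4AIII and 31.1 in Y14/eIF4AIII. Counted from rank 1, 50% of the depth of each list took 1476, 2619 and 1112 peaks.

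The lists reached a high depth sum in different ways. The eIF4AIII/Y14 regions were narrow and deep, with a median width of 59 nt (range 26 to 256) and a median depth of 4039 reads per base (range 936 to 33038). The Btz/eIF4AIII regions were wide, with a median of 252 nt (53 to 2283) and a median depth of 2265 reads (472 to 68646). The Y14/eIF4AIII regions lay between them in width, with a median of 144 nt (20 to 1012) and a depth of 2525 reads (350 to 49594). The median peak of the whole list was 31, 53 and 48 nt wide and 52, 95.3 and 34 reads deep.

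Width carried much of the rank in Btz/eIF4AIII. In this list 39 of the 100 regions were at least 300 nt wide, out of 150 peaks of that width in the list, and 0 were under 50 nt. In eIF4AIII/Y14 0 regions reached 300 nt, where the list held 9 such peaks, and 30 were under 50 nt. In Y14/eIF4AIII 15 regions reached 300 nt, of 32 in the list, and 1 was under 50 nt. Of the regions, 76 in eIF4AIII/Y14 were also among the 100 deepest peaks per base, against 40 in Btz/eIF4AIII and 62 in Y14/eIF4AIII. The lowest rank by depth per base was 628, 5323 and 3968.

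**Figure D1:**
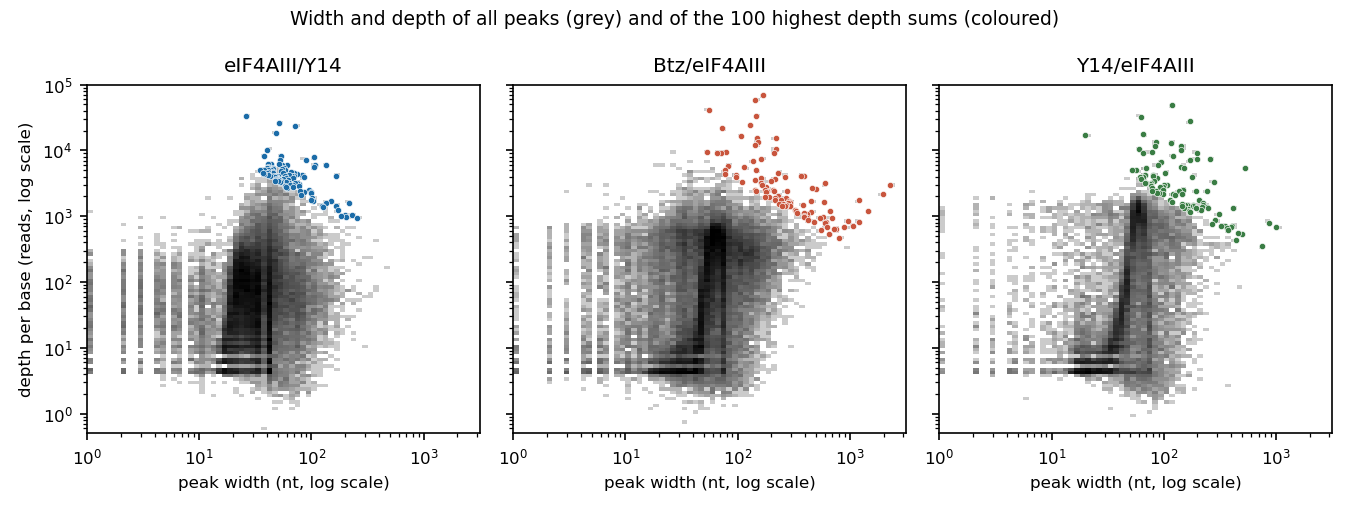
Each panel shows 1 list, with peak width (nt) on the x axis and depth (reads per base) on the y axis, both on log scales; grey shading counts all peaks and coloured points are the 100 highest depth sums. The eIF4AIII/Y14 points end at 256 nt, while the Btz/eIF4AIII points run along the lower right edge to 2283 nt.

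The line between kept and left-out peaks ran through near-equal values. In eIF4AIII/Y14 the depth sums at ranks 99 and 100 were 162506 and 161775, and those of the next 2 peaks were 159738 and 159683. In Btz/eIF4AIII they were 342116 and 335219 inside and 332183 and 330003 outside. In Y14/eIF4AIII they were 192011 and 189843 inside and 189658 and 189396 outside. Peaks of different form met there. The last Btz/eIF4AIII region kept was 78 nt wide at 4298 reads per base (2R 17214589 to 17214666, plus strand), and a left-out peak 2 ranks below it was 491 nt wide at 672 reads per base (X 1375840 to 1376330, minus strand).

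The first 10 eIF4AIII/Y14 regions had counterparts of very uneven rank in the other libraries. A counterpart is a peak of another list that overlaps the region by at least 1 bp on the same strand, and where several did, the one of highest depth sum is given. Rank 1 was 3L 224113 to 224183, plus strand, with 23666 reads per base in eIF4AIII/Y14, 2441 in Btz/eIF4AIII (rank 269) and 9412 in Y14/eIF4AIII (rank 19). Rank 2, U 5771681 to 5771731, minus strand, is on unplaced sequence and had 25725 reads, and its counterparts had 70.9 reads (rank 17091) and 49.9 reads (rank 6956). The region at rank 1 thus ranked high in all 3 lists, whereas that at rank 2 had counterparts near the middle of the other lists.

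Rank 3 was 2R 3218481 to 3218528, minus strand, with 18354 reads against 534 in Btz/eIF4AIII (rank 8187) and 368 in Y14/eIF4AIII (rank 1482). Rank 4, on chromosome 4 at 964178 to 964203, plus strand, was the deepest per base, with 33038 reads over 26 nt. Btz/eIF4AIII had a peak on exactly the same 26 nt with 9567 reads (rank 146), and Y14/eIF4AIII had 116 reads (rank 5703). No other eIF4AIII/Y14 peak of that strand lay within 4443 nt of it, so this region stood alone.

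At rank 5, 2R 19946552 to 19946656, plus strand, had 7888 reads against 2493 (Btz/eIF4AIII rank 69) and 504 (Y14/eIF4AIII rank 824), and the peaks of all 3 lists ended at base 19946656. Rank 6, 3R 1422152 to 1422286, minus strand, had 5898 reads against 1638 (rank 57) and 151.5 (rank 6041). Rank 8, 2R 10511268 to 10511375, plus strand, had 5994 reads against 313 in Btz/eIF4AIII (rank 9554) and 4109 in Y14/eIF4AIII (rank 43). Ranks 6 and 8 thus each returned near the top of a different one of the other lists.

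Rank 9, 2R 17212724 to 17212812, plus strand, followed rank 8, with 7237 reads in eIF4AIII/Y14, 119 in Btz/eIF4AIII (rank 13729) and 4478 in Y14/eIF4AIII (rank 30). Rank 10, 3R 19165904 to 19166009, minus strand, had 5498 reads against 919 (rank 106) and 924 (rank 1065). Of these 10 regions, 3 had a counterpart among the 100 highest of Btz/eIF4AIII and 4 among those of Y14/eIF4AIII, rank 7 with both.

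The first 10 Btz/eIF4AIII regions nearly all returned in Y14/eIF4AIII. A counterpart among the 100 highest of Y14/eIF4AIII was found for 8 of the 10, and among those of eIF4AIII/Y14 for 1. Rank 2 was 3L 831869 to 832010, minus strand, with 58866 reads per base in Btz/eIF4AIII, 9188 in Y14/eIF4AIII (rank 6) and 203 in eIF4AIII/Y14 (rank 775). Rank 4, 3R 16648329 to 16648474, plus strand, had 33581 reads against 11695 (rank 7) and 252 (rank 1626). Rank 6, 3R 7049285 to 7049505, plus strand, had 15314 reads, and its Y14/eIF4AIII counterpart was at rank 3 with 5313 reads over 525 nt. In eIF4AIII/Y14 that place held 49.9 reads over 40 nt (rank 15420). These regions thus ranked far lower in eIF4AIII/Y14 than in Y14/eIF4AIII.

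The X chromosome gave ranks 7 to 10 of Btz/eIF4AIII, as pairs of neighbours on either strand. On the minus strand, rank 7 (657143 to 657271, 24067 reads) and rank 10 (657974 to 658121, 15356 reads) had Y14/eIF4AIII counterparts at ranks 15 and 31. On the plus strand, rank 8 (3679473 to 3679528, 41580 reads) and rank 9 (3679627 to 3679846, 10333 reads) had them at ranks 64 and 71. In eIF4AIII/Y14 the same 4 places were at ranks 856, 5259, 13872 and 3182. Rank 8 and its counterparts in both other lists ended at the same base, 3679528, and rank 9 and its counterparts all began at base 3679627. The 98 nt between them were thus bounded by the same bases in all 3 libraries.

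The other 2 of the first 10 were the widest peaks of the list. Rank 3, 3R 23526369 to 23528651, plus strand, was 2283 nt wide at 3003 reads per base. Its counterparts were 20 nt wide with 48 reads in eIF4AIII/Y14 (rank 21310) and 40 nt wide with 4.80 reads in Y14/eIF4AIII (rank 12812). This region held 1.05% of the Btz/eIF4AIII depth and was close to absent from the other lists. Rank 5, 2R 7781060 to 7783017, plus strand, was 1958 nt wide at 2208 reads and overlapped 13 eIF4AIII/Y14 peaks (best rank 1709) and 8 Y14/eIF4AIII peaks (best rank 298).

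Of the first 10 Y14/eIF4AIII regions, 5 had a counterpart among the 100 highest of Btz/eIF4AIII and 2 among those of eIF4AIII/Y14. Rank 1, 2L 13211926 to 13212044, minus strand, had 49594 reads per base, with 5547 in Btz/eIF4AIII (rank 40) and 965 in eIF4AIII/Y14 (rank 695), and no other peak of its list within 5778 nt. Rank 4, 2R 7780626 to 7780688, plus strand, had 32250 reads, with 1923 in Btz/eIF4AIII (rank 380) and 368 in eIF4AIII/Y14 (rank 2848). Rank 5, 3L 827772 to 828032, minus strand, had 7352 reads, with 3238 (rank 144) and 458 (rank 361). These were high in Btz/eIF4AIII without always reaching its first 100.

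Rank 8, 2L 9894792 to 9894908, minus strand, went the other way, with 13006 reads in Y14/eIF4AIII, 1226 in eIF4AIII/Y14 (rank 55) and 417 in Btz/eIF4AIII (rank 1072). Rank 9, 2R 4984475 to 4984673, plus strand, had 7280 reads, against 1694 (Btz/eIF4AIII rank 158) and 189 (eIF4AIII/Y14 rank 1663). Rank 10, X 17040106 to 17040249, minus strand, had 10022 reads, against 4624 (rank 122) and 2155 (rank 369). Ranks 3, 6 and 7 were the counterparts of Btz/eIF4AIII ranks 6, 2 and 4.

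Over the chromosomes, the eIF4AIII/Y14 regions were most frequent on 2R, and the regions of all 3 lists were less frequent on X than all peaks were. On 2R lay 36 eIF4AIII/Y14 regions (95% interval 26.6 to 46.2%), where the list had 22.0% of its peaks and 26.1% of its depth. The Btz/eIF4AIII list had 14 (7.87 to 22.4%) and Y14/eIF4AIII 22 (14.3 to 31.4%) there, beside 21.7% and 20.9% of their peaks. On X lay 6 (2.23 to 12.6%), 6 (2.23 to 12.6%) and 7 regions (2.86 to 13.9%), beside 15.2%, 14.9% and 14.6% of the peaks. The X share of depth was 10.6%, 12.7% and 12.8%. It lay within the interval in eIF4AIII/Y14 and Y14/eIF4AIII and just above it in Btz/eIF4AIII. The remaining arms took 16 to 27 regions each, beside 17.0 to 24.3% of the peaks. Chromosome 4 had 3 eIF4AIII/Y14 regions (0.623 to 8.52%) and 0 in the other lists (up to 3.62%), beside 1.77%, 1.63% and 1.43% of the peaks. All 3 intervals there held the share of the whole list. The unplaced sequence U had 3, 0 and 2 regions, beside 0.134%, 0.170% and 0.410% of the peaks. Uextra had 0, 1 and 1, beside 0.363%, 0.673% and 2.40%. Heterochromatic sequences had 1, 2 and 0 regions. The 1 lay on 2RHet, with 0.175% of the eIF4AIII/Y14 peaks, and the 2 on 3LHet, with 0.190% of the Btz/eIF4AIII peaks.

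The plus strand held 42 eIF4AIII/Y14 regions (32.2 to 52.3%), 54 Btz/eIF4AIII regions (43.7 to 64.0%) and 52 Y14/eIF4AIII regions (41.8 to 62.1%), beside 48.2%, 48.2% and 47.6% of all peaks. All 3 intervals held the share of the whole list.

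Nearly all regions were found again in another library. Of the eIF4AIII/Y14 regions, 96 had a Btz/eIF4AIII counterpart (90.1 to 98.9%), against 41.8% of all eIF4AIII/Y14 peaks, and 73 had a Y14/eIF4AIII counterpart (63.2 to 81.4%), against 16.7%. Of the Btz/eIF4AIII regions, 94 had one in eIF4AIII/Y14 (87.4 to 97.8%), against 37.9%, and 96 in Y14/eIF4AIII (90.1 to 98.9%), against 19.3%. Of the Y14/eIF4AIII regions, 92 had one in eIF4AIII/Y14 (84.8 to 96.5%), against 35.1%, and 99 in Btz/eIF4AIII (94.6 to 99.97%), against 44.8%. In all 6 directions the interval lay above the share of all peaks.

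Wide peaks meet an overlap of 1 bp more easily, so other peaks at least as wide as the median region were set beside them. Of these, 70.5% of eIF4AIII/Y14 peaks had a Btz/eIF4AIII counterpart and 39.4% a Y14/eIF4AIII counterpart. The shares were 87.1% and 72.3% for Btz/eIF4AIII in eIF4AIII/Y14 and Y14/eIF4AIII, and 80.7% and 90.2% for Y14/eIF4AIII in eIF4AIII/Y14 and Btz/eIF4AIII. The distance to the regions was thus smaller than against all peaks, and for Btz/eIF4AIII in eIF4AIII/Y14 it was 94 against 87.1%, with the latter just below the interval of the former.

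The next 100 peaks of each list, which end at rank 200, returned as often, within the intervals of the first 100, in 3 of the 6 directions. They had a counterpart in 96 and 68 cases for eIF4AIII/Y14 (in Btz/eIF4AIII and Y14/eIF4AIII), and in 96 and 88 for Btz/eIF4AIII (in eIF4AIII/Y14 and Y14/eIF4AIII). For Y14/eIF4AIII the counts were 73 in eIF4AIII/Y14 and 88 in Btz/eIF4AIII. Both of these, and the 88 of Btz/eIF4AIII in Y14/eIF4AIII, were below the intervals of the first 100.

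A stricter overlap, of at least 50% of both peaks, lowered the counts most for the wide Btz/eIF4AIII regions. Then 71 eIF4AIII/Y14 regions had a Btz/eIF4AIII counterpart (20.0% of all peaks) and 52 a Y14/eIF4AIII counterpart (8.05%). For Btz/eIF4AIII the counts were 30 in eIF4AIII/Y14 (19.2%) and 44 in Y14/eIF4AIII (9.97%), and for Y14/eIF4AIII 55 (17.5%) and 71 (22.5%). Other peaks at least as wide as the median region gave 38.2% and 18.8% for eIF4AIII/Y14, in the same order. For Btz/eIF4AIII they gave 1.49% and 9.90%, and for Y14/eIF4AIII 17.0% and 44.9%. The next 100 peaks of Btz/eIF4AIII gave 31% and 42%. Both were within the intervals of its regions, 21.2 to 40.0% and 34.1 to 54.3%. Those of eIF4AIII/Y14 gave 59% and 41%, and those of Y14/eIF4AIII gave 37% and 54%, all below the intervals of their regions.

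A counterpart in both other lists was present for 69 eIF4AIII/Y14 regions, 91 Btz/eIF4AIII regions and 92 Y14/eIF4AIII regions, against 11.6%, 11.7% and 25.0% of all peaks. The 27 eIF4AIII/Y14 regions with a counterpart in Btz/eIF4AIII alone accounted for most of the rest of that list, with 4 in Y14/eIF4AIII alone. A region with no counterpart in either list occurred 0, 1 and 1 times. The Btz/eIF4AIII one was rank 80, 3L 13849970 to 13850449, plus strand, 480 nt wide at 818 reads per base. The Y14/eIF4AIII one was rank 50, 3L 1532507 to 1532574, minus strand, 68 nt wide at 4256 reads per base.

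The first 100 of the lists coincided far less than their presence did, and most between Btz/eIF4AIII and Y14/eIF4AIII. Of the Btz/eIF4AIII regions, 32 (23.0 to 42.1%) had a counterpart among the 100 highest of Y14/eIF4AIII, against 0.316% of all Btz/eIF4AIII peaks. The reverse count was also 32, against 1.06% of all Y14/eIF4AIII peaks. Between eIF4AIII/Y14 and Y14/eIF4AIII, which go through the same proteins in opposite order, the count was 12 in each direction (6.36 to 20.0%), against 0.386% and 0.491%. Between eIF4AIII/Y14 and Btz/eIF4AIII it was 6 in each direction (2.23 to 12.6%), against 0.638% and 0.289%. Other peaks at least as wide as the median region gave higher shares than all peaks. In the same order of directions they gave 0.990% and 7.74%, then 2.13% and 2.68%, then 3.04% and 1.49%. The 3.04%, for eIF4AIII/Y14 in Btz/eIF4AIII, lay within the interval of the regions, and the other shares lay below theirs. The interval for 32 lay above those for 12 and 6, while those for 12 and 6 overlapped. These intervals treat regions as independent, but 53 Btz/eIF4AIII and 38 Y14/eIF4AIII regions had another region of their list within 1 kb. With 1 library per purification, the difference between the pairs of lists was not tested. Of the next 100 peaks of each list, 15 Btz/eIF4AIII peaks and 10 Y14/eIF4AIII peaks met the other list's first 100. Between eIF4AIII/Y14 and Btz/eIF4AIII the next 100 gave 6 and 5, much as the first 100 did. Between eIF4AIII/Y14 and Y14/eIF4AIII they gave 5 and 2.

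The coincidence was also counted by class of rank. Of Btz/eIF4AIII ranks 1 to 10, 8 had a counterpart among the first 100 of Y14/eIF4AIII, against 14 of 40 at ranks 11 to 50 and 10 of 50 at ranks 51 to 100. In the reverse direction the counts were 5 of 10, 14 of 40 and 13 of 50. For eIF4AIII/Y14 regions they were 3 of 10, 3 of 40 and 0 of 50 in Btz/eIF4AIII, and 4 of 10, 5 of 40 and 3 of 50 in Y14/eIF4AIII. In these 4 directions the share was highest in the first 10. In eIF4AIII/Y14 the first 10 tied with a later class for the highest share. The counts there were 1 of 10, 0 of 40 and 5 of 50 Btz/eIF4AIII regions and 2 of 10, 8 of 40 and 2 of 50 Y14/eIF4AIII regions. Intervals from 10 regions are wide, at 0.253 to 44.5% for 1 of 10 and 2.52 to 55.6% for 2 of 10.

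By the rank of the counterparts, Btz/eIF4AIII and Y14/eIF4AIII again stood closest. The median rank was 306.5 for Btz/eIF4AIII regions in Y14/eIF4AIII (95% interval 141 to 1076) and 269 for Y14/eIF4AIII regions in Btz/eIF4AIII (136 to 723). It was 2367.5 for Btz/eIF4AIII in eIF4AIII/Y14 (1461 to 3338) and 1601 for Y14/eIF4AIII in eIF4AIII/Y14 (1163 to 2848). For eIF4AIII/Y14 regions it was 6259 in Btz/eIF4AIII (interval 2067 to 8596) and reached 2439 in Y14/eIF4AIII (1375 to 5318). The lists differ in length, and as a percent of the list the medians were 1.90% and 0.739%, then 6.77% and 4.58%, then 17.2% and 15.2%. The order of the pairs that include eIF4AIII/Y14 was not stable. For the next 100 eIF4AIII/Y14 peaks it was reversed, with medians of 13.1% in Btz/eIF4AIII and 22.9% in Y14/eIF4AIII.

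Among all peaks with a counterpart, its median rank lay between 33.0% and 41.4% of the other list in the 6 directions. For the next 100 peaks the medians were 1663 for Btz/eIF4AIII in Y14/eIF4AIII and 1870 in reverse, both outside the intervals of the first 100. For eIF4AIII/Y14 in Btz/eIF4AIII the median of the next 100 was 4785.5, within the interval of the first 100. A counterpart in the lower 50% of its list was the best that 17 eIF4AIII/Y14 regions had in Btz/eIF4AIII and 21 had in Y14/eIF4AIII, against 5 to 8 regions in the other 4 directions.

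**Figure D2:**
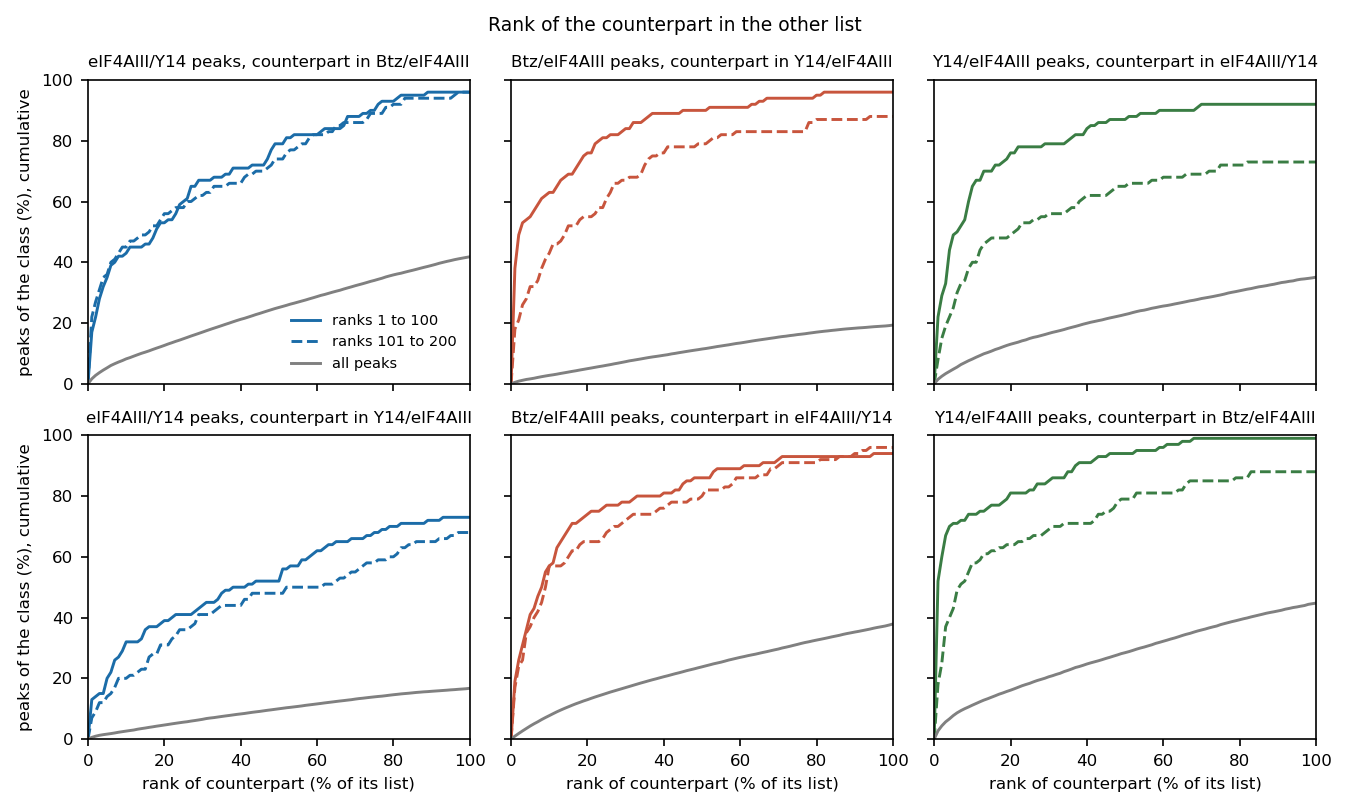
Each panel shows 1 list against another: the x axis is the rank of the counterpart as a percent of its list, the y axis the cumulative percent of peaks with a counterpart up to that rank, for ranks 1 to 100 (solid), the next 100 ranks (dashed) and all peaks (grey). The solid line of Btz/eIF4AIII in Y14/eIF4AIII stands well above the dashed one, while both lines of eIF4AIII/Y14 in Btz/eIF4AIII run together and end at 96%.

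Seen from the other library, the peaks under the regions held a larger share of depth than of covered bases in every direction, and the largest shares of depth were between Btz/eIF4AIII and Y14/eIF4AIII. Y14/eIF4AIII peaks under the Btz/eIF4AIII regions were 171 peaks with 11.2% of the Y14/eIF4AIII depth on 2.51% of its covered bases. Btz/eIF4AIII peaks under the Y14/eIF4AIII regions were 115 peaks with 10.5% of the Btz/eIF4AIII depth on 0.921% of its bases. The eIF4AIII/Y14 regions, which are narrower, covered peaks with 2.95% of the Btz/eIF4AIII depth on 0.466% of its bases and 4.24% of the Y14/eIF4AIII depth on 0.743% of its bases. In reverse, Btz/eIF4AIII and Y14/eIF4AIII regions covered 3.14% and 4.28% of the eIF4AIII/Y14 depth on 1.49% and 1.09% of its bases.

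Merged over the lists, the 300 regions formed 251 loci. Of these, 206 were among the 100 highest of 1 list, 43 of 2 and 2 of all 3, so 17.9% were shared. Btz/eIF4AIII and Y14/eIF4AIII shared 29, eIF4AIII/Y14 and Y14/eIF4AIII 10, and eIF4AIII/Y14 and Btz/eIF4AIII 4. Of the loci of 1 list, 84 were from eIF4AIII/Y14, 64 from Btz/eIF4AIII and 58 from Y14/eIF4AIII. Most loci of a pair still had a peak in the third list. This was so for 28 of the 29 in eIF4AIII/Y14, with a median rank of 1524.5 (range 105 to 24294). It was so for all 10 in Btz/eIF4AIII, with a median of 936.5 and a lowest rank of 13729, and for all 4 in Y14/eIF4AIII, with a median of 1157.5 (108 to 3177). Of all Btz/eIF4AIII peaks with a Y14/eIF4AIII counterpart, 4248 of 7031 also had one in eIF4AIII/Y14. Of all eIF4AIII/Y14 peaks with a Y14/eIF4AIII counterpart, 4071 of 5841 had one in Btz/eIF4AIII. Of those with a Btz/eIF4AIII counterpart, 4071 of 14609 had one in Y14/eIF4AIII. Loci are merged peaks, and wide stretches meet an overlap more easily.

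The 2 loci among the first 100 of all 3 lists both lay on 2R. The first, at 13504256 to 13504428 on the plus strand, was at rank 7 in eIF4AIII/Y14, rank 1 in Btz/eIF4AIII and rank 2 in Y14/eIF4AIII. Its peaks were 164, 169 and 173 nt wide, with 4040, 68646 and 28069 reads per base, and the peaks of Btz/eIF4AIII and Y14/eIF4AIII ended at the same base. It was isolated, with no other peak of its strand within 13637 nt in eIF4AIII/Y14, 1834 nt in Btz/eIF4AIII or 1830 nt in Y14/eIF4AIII. The other, at 8048629 to 8048809 on the minus strand, was at ranks 43, 52 and 20, with 1414, 2778 and 3999 reads per base. Its peaks too were of like width in each list, at 167, 180 and 179 nt.

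**Figure D3:**
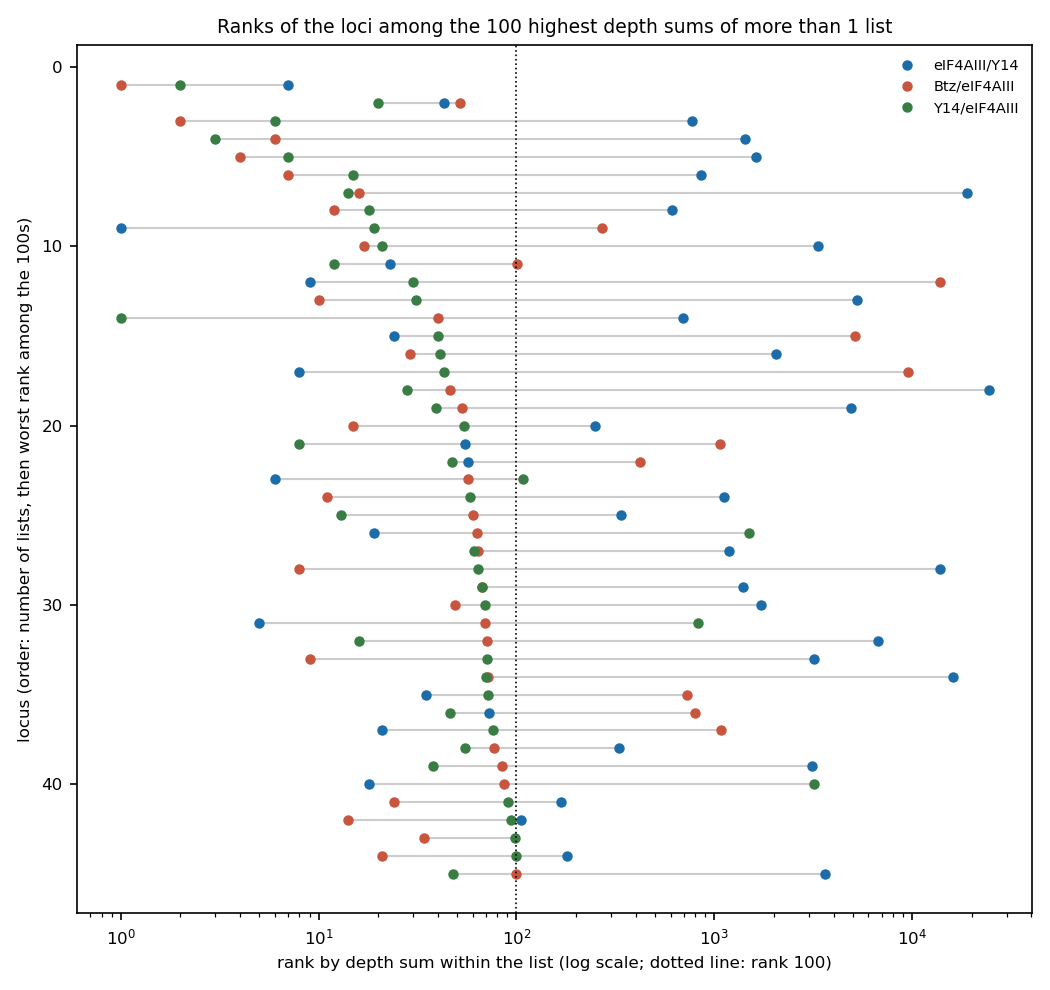
Each row is 1 of the 45 loci among the 100 highest depth sums of more than 1 list, and each point its rank in a list on a log scale, with rank 100 as a dotted line. The first 2 rows have all their points left of the line, and most later rows pair Btz/eIF4AIII with Y14/eIF4AIII and have eIF4AIII/Y14 at the right, down to rank 24294.

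The regions with the lowest-ranked counterparts show how far a place can differ between libraries. They were chosen by rank number, which favours counterparts in the longer lists. The lowest for eIF4AIII/Y14 by that number was rank 71, 2R 3212082 to 3212146, minus strand, with 2942 reads per base, where Btz/eIF4AIII had 2.85 reads (rank 32067, or 88.1% down its list) and Y14/eIF4AIII 43.6 (rank 6754). As a percent of the list a Y14/eIF4AIII counterpart was lower still, at rank 14863 (92.4%) with 3 reads. It belonged to rank 95 of eIF4AIII/Y14, 3L 6205121 to 6205157, minus strand, with 4475 reads, where Btz/eIF4AIII had 549 reads (rank 2864). Rank 38, 2L 227372 to 227416, minus strand, had 5361 reads against 10.3 (rank 29480) and 7.64 (rank 8898). Rank 28, X 1672549 to 1672592, plus strand, had 6274 reads against 14 in Btz/eIF4AIII (rank 27681) and no Y14/eIF4AIII peak. Rank 46, 2R 19942657 to 19942697, minus strand, had 5606 reads against 15 and 25 (ranks 27624 and 9294). Ranks 71, 38, 28 and 46 were 41 to 65 nt wide, beside a median of 59 nt for all eIF4AIII/Y14 regions.

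Rank 96 of eIF4AIII/Y14, 3L 3120035 to 3120114, minus strand, differed from them, as it was low in Btz/eIF4AIII alone. It had 2069 reads in eIF4AIII/Y14, 10.2 in Btz/eIF4AIII (rank 29352) and 1228 in Y14/eIF4AIII (rank 1375). In Y14/eIF4AIII the same form was seen at 3 regions. Rank 68, 2R 19934154 to 19934245, minus strand, had 2747 reads against 11.9 in Btz/eIF4AIII (rank 24733) and 773 in eIF4AIII/Y14 (rank 1163). Rank 33, 2R 13586713 to 13586781, plus strand, had 5309 reads against 20.3 (rank 23596) and 278 (rank 2230). Rank 51, 3L 1666464 to 1666520, minus strand, had 4964 reads against 39.5 (rank 21930) and 894 (rank 1077).

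At these places the libraries made through eIF4AIII and Y14 were high in either order and Btz/eIF4AIII was low. A different form was seen at 2L 8042188 to 8042350, minus strand, at rank 46 in Btz/eIF4AIII with 3234 reads and rank 28 in Y14/eIF4AIII with 6002. There eIF4AIII/Y14 had 24 reads over 26 nt (rank 24294), and the peaks of all 3 lists began, on that strand, at base 8042350. Rank 88 of Y14/eIF4AIII, 2L 213521 to 213684, minus strand, was lower in both other lists. It had 1267 reads against 128 in Btz/eIF4AIII (rank 12390) and 35 in eIF4AIII/Y14 (rank 23865).

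Most regions had other peaks of the same strand and list close by. A neighbour within 1 kb was present for 93 eIF4AIII/Y14 regions (86.1 to 97.1%), 93 Btz/eIF4AIII regions (86.1 to 97.1%) and 88 Y14/eIF4AIII regions (79.98 to 93.6%). Of all peaks, 83.8%, 88.2% and 67.1% had one, so the share of Btz/eIF4AIII was within the interval and the other shares were below it. The median number of neighbours was 6, 4 and 4, against 3, 3 and 1 for all peaks. The nearest lay at a median of 64, 60.5 and 88.5 nt, against 169, 107 and 364 nt. In the next 100 peaks of each list the share with a neighbour was 93, 95 and 85%, and the nearest lay at 69, 62 and 133 nt, so closeness to other peaks was shared with the next 100.

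How a region stood against its neighbours differed between lists. In eIF4AIII/Y14 every neighbour within 1 kb was shallower per base at 85 regions and a deeper one was present at 8. The deepest neighbour had a median of 0.127 times the depth of the region, and less than 10% of it at 41 regions. In Btz/eIF4AIII 57 regions stood above every neighbour and 36 had a deeper one, with a median ratio of 0.779. In Y14/eIF4AIII the counts were 63 and 25, with a median ratio of 0.350. Since depth and width entered the choice, the ratios describe the regions and are not a finding about them.

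Regions also lay near each other. Another region of the same list within 1 kb was present for 14 eIF4AIII/Y14, 53 Btz/eIF4AIII and 38 Y14/eIF4AIII regions, against 1.61%, 0.956% and 2.04% of all peaks with 1 of the 100 highest that close. They formed 6, 20 and 14 clusters of up to 4, 6 and 6 regions. The clustered regions of a list are therefore not independent places, and the intervals above are too narrow to that extent.

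The largest cluster was on 2L, plus strand, from 5031208 to 5036208, and was shared by Btz/eIF4AIII and Y14/eIF4AIII. In Btz/eIF4AIII it held 6 peaks, all among the 100 highest, with 632 to 2617 reads per base. They stood at ranks 26, 21, 17, 29, 64 and 84 along the strand and held 0.863% of the depth. In Y14/eIF4AIII the same stretch held 16 peaks with 0.959% of the depth, and 6 were among the 100 highest, the first at rank 21. In eIF4AIII/Y14 it held 27 peaks with 0.132% of the depth, and 0 were among the 100 highest, the first at rank 179. The cluster thus took like shares of Btz/eIF4AIII and Y14/eIF4AIII and a smaller one of eIF4AIII/Y14.

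Several gaps within this cluster had the same borders in different libraries. A peak ended at base 5032374 and the next began at 5032500 in all 3 lists, a gap of 125 nt. The gap of 62 nt from 5033950 to 5034013 and that of 82 nt from 5034981 to 5035064 were bounded by the same bases in Btz/eIF4AIII and Y14/eIF4AIII. All 3 lists had a peak ending at 5036208. Between borders shared by all 3 lists the number of peaks differed, from 1 peak of 1451 nt in Btz/eIF4AIII between 5032500 and 5033950 to a pair of 414 and 1012 nt in Y14/eIF4AIII and a row of shorter peaks in eIF4AIII/Y14, the first of 81 nt and the last of 59 nt.

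On 3R, plus strand, from 7048129 to 7050667, the Btz/eIF4AIII list held 9 peaks with 1.15% of its depth, 5 of them among the 100 highest (ranks 60, 25, 6, 18 and 32 along the strand). Y14/eIF4AIII held 12 peaks there with 1.47% of its depth, 3 of them among the 100 highest (ranks 13, 73 and 3). In eIF4AIII/Y14 there were 16 peaks with 0.150% of the depth, the first at rank 337. Bases 7049252 and 7049969 ended a peak in all 3 lists, and base 7048283 began one. As on 2L, the stretch stood high in Btz/eIF4AIII and Y14/eIF4AIII and lower in eIF4AIII/Y14.

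Another Btz/eIF4AIII cluster had few peaks in the other lists, and 1 of those was deep. On 3L, plus strand, from 13849970 to 13852535, it held 6 peaks with 0.678% of the Btz/eIF4AIII depth, 4 of them among the 100 highest (ranks 80, 51, 13 and 23 along the strand). Its deepest region, rank 13, had 9208 reads per base over 213 nt, against 42 reads over 18 nt in eIF4AIII/Y14 (rank 23026) and no Y14/eIF4AIII peak. Rank 23, 13852080 to 13852535, had 2656 reads against 33 in eIF4AIII/Y14 (rank 24617) and 57 in Y14/eIF4AIII (rank 7169). Rank 51, 13850484 to 13851099, had 817 reads and met a Y14/eIF4AIII peak of 821 reads over 68 nt (rank 1883), with no eIF4AIII/Y14 peak. The whole stretch had 3 eIF4AIII/Y14 peaks with 0.00162% of the depth and 2 Y14/eIF4AIII peaks with 0.0185%. Rank 76, 3L 13845667 to 13845993 on the same strand, was low in both other lists, with 1226 reads against 6 (rank 33095) and 12 (rank 10431). It belonged to a neighbouring cluster of 3 regions, 13844096 to 13845993, with 0.232% of the Btz/eIF4AIII depth against 0.00104% and 0.0283%. The first region of that cluster, rank 42, had 682 reads and met a Y14/eIF4AIII peak of 1492 reads over 59 nt (rank 683).

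**Figure D4:**
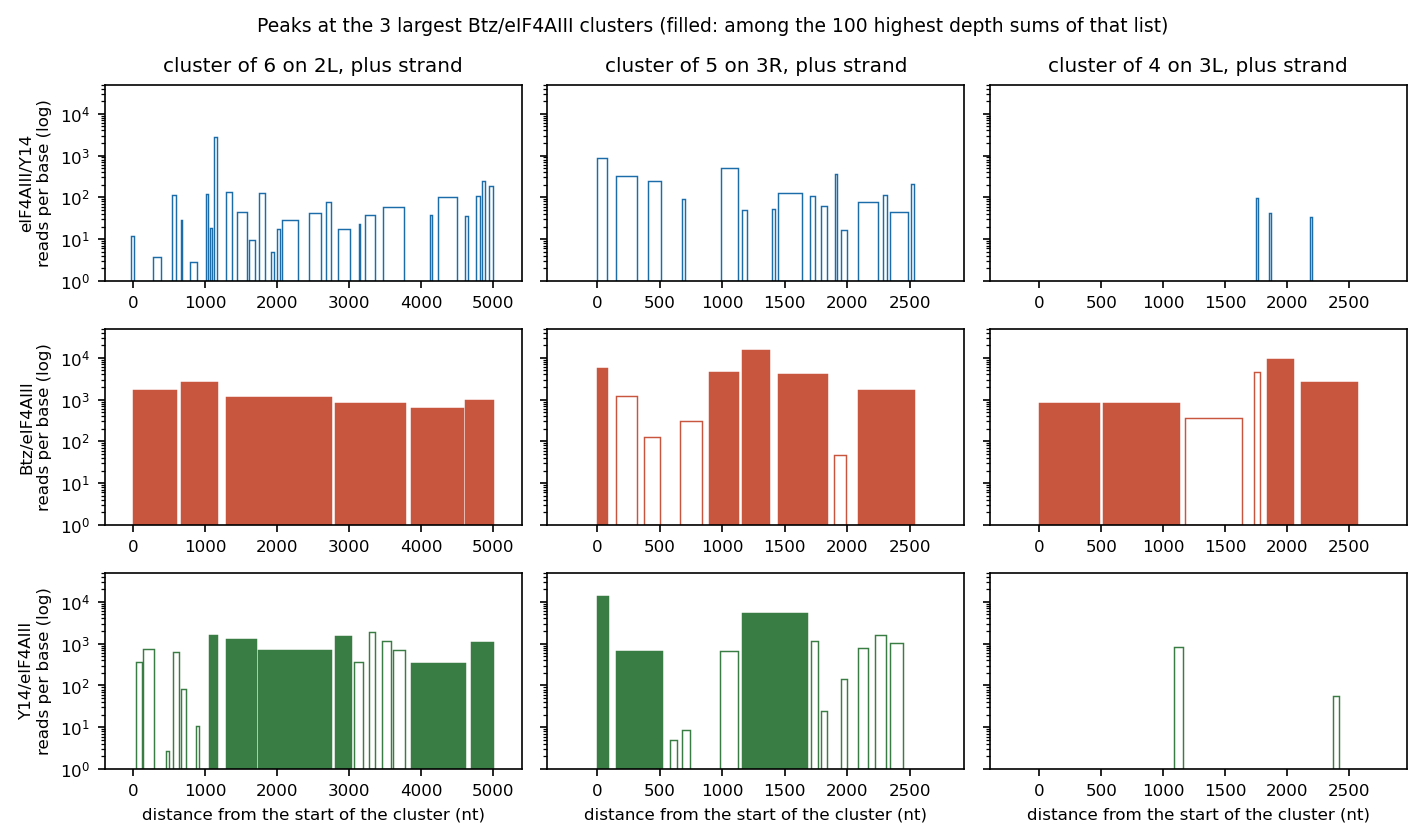
Columns are the 3 Btz/eIF4AIII clusters with the most regions and rows the 3 lists; each box is a peak, placed by its distance (nt) from the start of the cluster, with its top at the depth (reads per base, log scale starting at 1), and filled where it is among the 100 highest depth sums of its list. The first 2 clusters have filled boxes in Btz/eIF4AIII and Y14/eIF4AIII, and the last has them in Btz/eIF4AIII alone.

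In eIF4AIII/Y14 the largest cluster was on 2L, minus strand, from 117817 to 119237. It held 11 peaks with 0.526% of the depth, 4 of them among the 100 highest (ranks 53, 14, 68 and 69 by position). Btz/eIF4AIII and Y14/eIF4AIII each had 9 peaks there, with 0.108% and 0.162% of their depth and first ranks of 133 and 115. The stretch was thus present in every list and among the 100 highest of eIF4AIII/Y14 alone. The other pairs named here were 3L 224113 to 225144, plus strand (ranks 1 and 57, 0.982% of the depth), and 2R 10511268 to 10511578, plus strand (ranks 8 and 23, 0.487%). Both were pairs of the 100 highest in Y14/eIF4AIII too, with 0.327% and 0.469% of its depth, against 0.0465% and 0.0536% in Btz/eIF4AIII.

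In Y14/eIF4AIII, the cluster on 2R, plus strand, from 4983273 to 4984673 held 6 peaks with 0.768% of the depth, 3 of them among the 100 highest (ranks 25, 77 and 9 along the strand). Btz/eIF4AIII had 5 peaks there with 0.0612% of its depth (first rank 158) and eIF4AIII/Y14 had 11 with 0.0568% (first rank 1214). This cluster was thus among the 100 highest of Y14/eIF4AIII alone.

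The side on which the next peak lay was uneven in eIF4AIII/Y14. Sides follow the strand column, taken as the strand of the RNA, and gaps of 50 to 75 nt were counted because earlier results had shown them to be frequent in all 3 lists. A gap of this length followed 39 eIF4AIII/Y14 regions downstream (29.4 to 49.3%) and 10 upstream (4.90 to 17.6%), where all peaks have 10.0% on either side, since each gap has 1 peak at each end. In Btz/eIF4AIII the counts were 32 downstream (23.0 to 42.1%) and 26 upstream (17.7 to 35.7%), against 17.3%. In Y14/eIF4AIII they were 17 (10.2 to 25.8%) and 8 (3.52 to 15.2%), against 7.17%. The intervals of both sides were apart in eIF4AIII/Y14 and overlapped in the other lists. In the next 100 peaks of eIF4AIII/Y14 the counts were 25 downstream and 11 upstream, with intervals that overlapped.

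**Figure D5:**
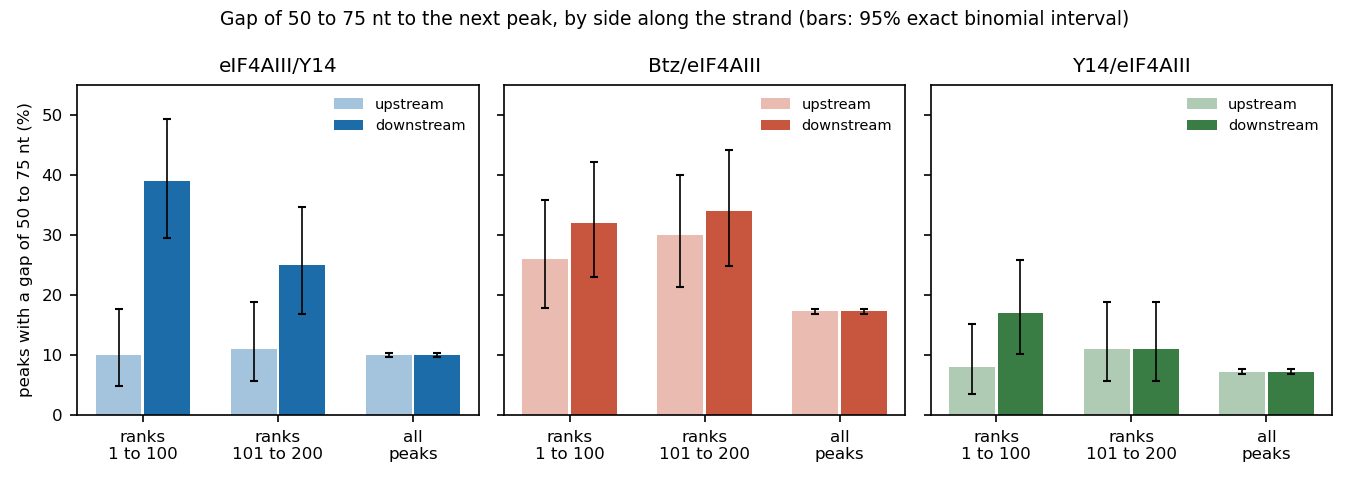
Bars give the percent of peaks with a gap of 50 to 75 nt to the next peak upstream (light) and downstream (dark), for ranks 1 to 100, the next 100 ranks and all peaks of each list, with 95% exact binomial intervals. The dark bar of eIF4AIII/Y14 ranks 1 to 100 stands at 39% beside a light bar of 10%.

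The peak on the far side of the gap was usually shallow in eIF4AIII/Y14. Downstream, 90 regions had a next peak within 1 kb, at a median of 72 nt and 0.0228 times the depth of the region. Upstream, 81 had one, at a median of 116 nt and 0.0196 times the depth. In Btz/eIF4AIII the median ratios were 0.244 downstream and 0.269 upstream, and in Y14/eIF4AIII 0.0761 and 0.0576. The choice of regions by depth favours low ratios, so these too are descriptions.

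The 3′ borders of the eIF4AIII/Y14 regions recurred to the base in the other libraries more often than their 5′ borders. An identical border was counted if any overlapping peak of the other list had it. Of the 96 with a Btz/eIF4AIII counterpart, 47 had the identical 3′ border, or 49.0%, against 20.5% of all eIF4AIII/Y14 peaks with such a counterpart. The identical 5′ border was found in 7, or 7.29%, against 18.4%. Of the 73 with a Y14/eIF4AIII counterpart, 28 had the same 3′ border (38.4%, against 15.3%) and 9 the same 5′ border (12.3%, against 15.4%). Other eIF4AIII/Y14 peaks at least as wide as the median region shared 22.4% of 3′ and 11.9% of 5′ borders with Btz/eIF4AIII. With Y14/eIF4AIII they shared 12.9% and 9.87%, so the 5′ share of the regions was not below that of wide peaks there. Within 5 nt, 68 of the 96 met the 3′ border of the Btz/eIF4AIII counterpart and 31 the 5′ border. Borders within 5 nt were counted for the regions alone, without a share of all peaks beside them.

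At the identical base, the regions of the other lists shared both borders at more similar rates. Of the 94 Btz/eIF4AIII regions with an eIF4AIII/Y14 counterpart, 27 shared the 3′ border and 23 the 5′ border, against 21.7% and 19.5% of all such peaks. With Y14/eIF4AIII, 28 and 25 of 96 did, against 19.8% and 19.1%. Of the Y14/eIF4AIII regions, 16 and 23 of 92 shared them with eIF4AIII/Y14, against 15.8% and 15.9%, and 27 and 30 of 99 with Btz/eIF4AIII, against 19.3% and 18.7%. Several eIF4AIII/Y14 counterparts were present for 52 of the 94 Btz/eIF4AIII regions, against 845 of 13787 such peaks. Other Btz/eIF4AIII peaks at least as wide as the median region shared 20.5% and 10.8% with eIF4AIII/Y14 and 12.3% and 9.59% with Y14/eIF4AIII. Such Y14/eIF4AIII peaks shared 10.3% and 11.4% with eIF4AIII/Y14 and 17.2% and 13.5% with Btz/eIF4AIII. Within 5 nt, Y14/eIF4AIII regions leaned the other way, with 23 of 92 meeting the 3′ border of the eIF4AIII/Y14 counterpart and 42 the 5′ border, and 47 and 58 of 99 those of Btz/eIF4AIII. For Btz/eIF4AIII regions these counts were 36 and 25 of 94 in eIF4AIII/Y14 and 36 and 33 of 96 in Y14/eIF4AIII. Whether all peaks lean in these ways within 5 nt was not tested. In the next 100 peaks of eIF4AIII/Y14 the split was again present, with 43 and 9 of 96 in Btz/eIF4AIII and 21 and 4 of 68 in Y14/eIF4AIII.

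Shared 3′ borders went with downstream gaps at the eIF4AIII/Y14 regions, as they did among all peaks. Of the 47 regions that shared their 3′ border with Btz/eIF4AIII, 25 were followed by a gap of 50 to 75 nt, against 12 of the 49 others with a counterpart. Among all eIF4AIII/Y14 peaks with such a counterpart the shares were 36.9% and 8.84%. With Y14/eIF4AIII, 17 of 28 regions were, against 12 of 45, and the shares of all such peaks were 30.5% and 12.6%. Regions of the other lists leaned the same way in every direction. For Btz/eIF4AIII regions the counts were 12 of 27 against 20 of 67 in eIF4AIII/Y14 and 13 of 28 against 16 of 68 in Y14/eIF4AIII. For Y14/eIF4AIII regions they were 6 of 16 against 10 of 76 in eIF4AIII/Y14 and 7 of 27 against 10 of 72 in Btz/eIF4AIII. Among all such peaks the shares were 44.2% and 22.6%, 36.7% and 17.7%, 28.8% and 9.05%, and 29.1% and 6.07%, in that order. The pairing of border and gap was thus not particular to the eIF4AIII/Y14 regions. Since no annotation of this release was used, whether these borders are exon ends was not tested.

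Few regions were overlapped by a peak of the opposite strand, although not fewer than among all peaks in 2 of the 3 lists. A peak of the same list on the other strand overlapped 2 eIF4AIII/Y14 regions (0.243 to 7.04%), 3 Btz/eIF4AIII regions (0.623 to 8.52%) and 0 of 100 Y14/eIF4AIII regions (up to 3.62%), against 0.893%, 0.588% and 0.795% of all peaks. The share of all peaks lay within the interval in eIF4AIII/Y14 and Y14/eIF4AIII and below it in Btz/eIF4AIII, whose regions are the widest. The opposite peaks had 5.5 to 12 reads per base, next to regions of 818 to 4072 reads. Ranks 3 and 80 of Btz/eIF4AIII, both of which had little or nothing in the other lists, were among the regions overlapped.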

How the data were processed

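RNA fragments from 3 tandem purifications were sequenced, with 1 library each. The authors deposited a peak list with strands for each library. Its track name, per the file headers, contains "clipped" and "merged". The submitters' processing notes name Bowtie and SAMtools and no version. Neither the caller nor its threshold nor the build is given in the sources used here. The score in the deposited lists is a signal value, and multiplied by the width it was a whole number (tolerance 0.001) for every peak, as a mean read coverage per base would be. Reads per library are not given, so precision is limited by the number of peaks. The eIF4AIII/Y14 track name mentions Y14 alone, and this library was assigned by its GEO label.

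Peaks were ranked by depth sum, and the 100 highest per list were compared with the other lists (same strand, at least 1 bp shared), in Python 3.11.15 with numpy 2.4.6, pandas 2.3.3, scipy 1.17.1 and matplotlib 3.10.9. Overlap, neighbour and merging functions were tested on simulated data. Regions named are the 10 highest per list, loci among the 100 highest of all 3 lists, the last 2 peaks kept and the first 2 left out, up to 5 regions per list without a counterpart, up to 5 with the lowest-ranked counterparts, and up to 3 clusters per list. A cluster is a run of regions within 1 kb of each other. The neighbouring 3L cluster at 13844096 and rank 95 of eIF4AIII/Y14 were named after their values were seen. Regions and measures were chosen with earlier results of these data known. Alternatives were another ranking measure, 50 or 200 peaks per list, chromosome arms and chromosome 4 alone, other overlap rules, other choices of counterpart and other neighbour distances.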

Additional observations from a re-analysis of the deposited data

How the results depend on the processing

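Of 192 alternative values, 142 lay within the interval of the reported value or within 1.5 times a reported count, and those outside follow. Shares of depth have no interval, so any change in them, however small, was counted as outside. Depth is limited to called peaks, so a missing counterpart may lie below the calling threshold, and 1 library per purification leaves differences between purifications without a replicate. No paired analysis was possible because each purification had 1 library. In the following, directions are given as eIF4AIII/Y14 in Btz/eIF4AIII (1), eIF4AIII/Y14 in Y14/eIF4AIII (2), Btz/eIF4AIII in eIF4AIII/Y14 (3), Btz/eIF4AIII in Y14/eIF4AIII (4), Y14/eIF4AIII in eIF4AIII/Y14 (5) and Y14/eIF4AIII in Btz/eIF4AIII (6). Ranked by depth per base, the 100 peaks of eIF4AIII/Y14, Btz/eIF4AIII and Y14/eIF4AIII held 14.1%, 12.99% and 16.8% of depth at median widths of 48, 68 and 74 nt. Then 80, 77 and 87 had a counterpart in directions 4 to 6, the median ranks in directions 1 and 3 to 6 were 9405, 4639, 2041.5, 3330 and 732, and a gap of 50 to 75 nt lay upstream of 3 Y14/eIF4AIII peaks, an alternative chosen after seeing the data, as were those for borders. With 50 peaks per list, 2.0% met the other first 50 in directions 1 and 3, 86% and 98% had a counterpart in directions 2 and 5, and 18 loci were shared. With 200, 82.5% and 93.5% had one in directions 5 and 6, median ranks in directions 4 and 6 were 1077.5 and 884, and 89 loci were shared. On arms and chromosome 4 alone the shares of depth were 14.7%, 16.99% and 19.0%. With overlap of 50% of both peaks, 71, 52, 30, 44, 55 and 71 regions had a counterpart in directions 1 to 6, at median ranks of 691 and 69.5 in directions 3 and 4. With the middle base covered, 90, 55, 65, 73 and 89 did in directions 1 and 3 to 6. With counterparts at or above the median depth sum alone, 79, 52, 86, 90 and 94 did in directions 1 to 4 and 6. With counterparts ranked by depth per base, the median ranks in directions 3 to 6 were 8257, 2096, 5274 and 920. The cause of these changes was not tested. Shorter and longer neighbour distances, neighbours of either strand and the counterpart of longest overlap gave values within the intervals.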
